A study of Mus musculus with 9 samples.

Results

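TRiC, also called CCT, is the cytosolic chaperonin, and its 8 subunits are made by the genes Tcp1, Cct2, Cct3, Cct4, Cct5, Cct6a, Cct7 and Cct8. These 8 genes were taken by their symbol from the annotation of the array. That rule used no measured values, but earlier results of these data were known when it was set. The genes are 8 of the 19938 genes tested. Each was measured by 1 probe set, so no choice between probe sets arose, and all 8 were tested. Expression was measured in immortalized mouse embryonic fibroblasts (MEFs), cells from embryos of ICR mice that divide indefinitely in culture. In 3 samples an adenovirus carried a short hairpin RNA (shRNA), a transcript that the cell turns into a small interfering RNA, against HSF1. In 3 further samples the shRNA was directed against RPA1, and in 3 control samples it was scrambled. All 9 samples therefore shared the adenovirus, given at 1e8 pfu per ml for 2 h, a further 70 h of growth at 37 degrees in medium with 10% serum, and labelling of 200 ng of RNA. The labels name no heat shock. HSF1 is the transcription factor best known for the heat shock response, and RPA1 is the large subunit of RPA, which binds single-stranded DNA. The question behind the study was whether HSF1 and RPA, acting as a complex, control transcription. The labels do not give the clonality of the cells or say whether the 3 arrays of a group came from separate cultures, so the p-values measure the spread between these samples, which may be technical.

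TRiC is a barrel of stacked rings, and each ring holds 1 copy of every subunit in a fixed order. The barrel encloses a newly made protein, closes a built-in lid by hydrolysing ATP and releases the protein folded. Actin and tubulin cannot reach their native state without it, which ties TRiC to the cytoskeleton and to cell division, and the activators of the ubiquitin ligase APC/C depend on it too. The subunits are paralogs of one another with similar ATPase parts and different parts that contact the client, and the complex needs all of them. In earlier mouse work the Cct genes were reported to have elements in their promoters that heat shock factors can use.

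The starts of the genes are given first because HSF1 shRNA targets a factor that binds DNA. In the RefSeq annotation of GRCm38.p6, Tcp1 lies at chr17:12916329-12925067 on the plus strand, Cct2 at chr10:117050997-117063852 on the minus strand and Cct3 at chr3:88297135-88321766 on the plus strand. Cct4 lies at chr11:22990593-23003336, Cct5 at chr15:31590800-31601846 on the minus strand and Cct6a at chr5:129787356-129846443 on the plus strand. Cct7 lies at chr6:85451505-85468477 on the plus strand and Cct8 at chr16:87483325-87495869 on the minus strand. The 8 genes thus sit on 8 chromosomes. RefSeq promoters of 300 bases, 250 before and 50 after a start, were matched for 7 of the 8 members, with 9 starts among them. The heat shock element was searched on both strands as a pair of inverted units, GAANNTTC or TTCNNGAA, in which N is any base. It was found at 3 of the 9 starts, against 15.1% of the 32851 promoters in the table. For Cct5 it lay 34 bases before the start, for Cct6a 24 bases after it, and for Cct2 42 bases before the second of its starts. The longer element with 1 more inverted unit was found at 0 of the 9 starts and in 0.603% of all promoters. The stretches around the Cct5 and Cct6a starts are shown because they hold the shorter element, which is in capitals. Each runs 5′ to 3′ along the gene's strand, at chr15:31601797-31601946 on the minus strand for Cct5 and chr5:129787256-129787405 on the plus strand for Cct6a.
Cct5: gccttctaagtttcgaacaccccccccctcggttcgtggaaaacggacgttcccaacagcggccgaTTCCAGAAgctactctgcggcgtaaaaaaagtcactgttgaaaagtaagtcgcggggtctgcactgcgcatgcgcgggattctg
Cct6a: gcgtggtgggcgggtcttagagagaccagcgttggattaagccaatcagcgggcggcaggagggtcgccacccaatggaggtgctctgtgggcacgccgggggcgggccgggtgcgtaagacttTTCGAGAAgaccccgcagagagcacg
Neither of these genes passed the test in any of the 3 comparisons below, and a match of letters says nothing about binding.

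The Cct7 and Cct3 promoters are shown because these were the members that passed the test. CCAAT boxes, letters that the factor NF-Y is known to bind, read CCAAT or ATTGG and are in capitals, as are GC boxes, letters that Sp1 is known to bind, which read GGGCGG or CCGCCC. The stretches lie at chr6:85451255-85451554 and chr3:88296885-88297184, both on the plus strand.
Cct7: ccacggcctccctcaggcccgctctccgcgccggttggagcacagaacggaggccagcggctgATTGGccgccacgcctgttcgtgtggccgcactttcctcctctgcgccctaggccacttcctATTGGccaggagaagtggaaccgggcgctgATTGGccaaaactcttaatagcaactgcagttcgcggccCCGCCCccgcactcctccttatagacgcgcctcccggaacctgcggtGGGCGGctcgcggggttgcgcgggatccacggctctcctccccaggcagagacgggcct
Cct3: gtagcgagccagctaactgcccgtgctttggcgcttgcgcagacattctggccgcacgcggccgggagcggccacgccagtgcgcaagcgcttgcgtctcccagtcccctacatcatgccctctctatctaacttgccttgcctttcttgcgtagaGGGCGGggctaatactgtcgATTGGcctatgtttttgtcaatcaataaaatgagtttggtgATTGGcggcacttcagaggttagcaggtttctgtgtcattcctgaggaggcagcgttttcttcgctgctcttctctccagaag
The Cct7 promoter held 3 CCAAT boxes, at 187, 125 and 95 bases before the start, and 2 GC boxes. The Cct3 promoter held 2 CCAAT boxes, at 74 and 33 bases before the start, and 1 GC box. Tcp1 and Cct6a had CCAAT boxes too, so that 4 of the 9 starts held one, against 37.4% of all promoters. A GC box was found at 8 of the 9 starts and for all 7 genes with an entry, against 35.7% of all promoters.

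Array medians over all rows of the table lay between 7.72 and 7.81 on the log2 scale, and correlations between arrays of 1 group between 0.992 and 0.995. Over the genes tested, HSF1 shRNA array 1 had a median of 8.46 and was the highest array for 21.9% of the genes, while the medians of the other 8 arrays lay between 8.35 and 8.38. No TRiC gene was highest on that array. Rpa1 checked the labels. It read 9.42, 9.34 and 9.40 on the RPA1 shRNA arrays, against 11.40, 11.42 and 11.41 on the control arrays, a log2 difference of -2.02 ± 0.04 (SE, adjusted p = 3.53e-08 in limma). On the HSF1 shRNA arrays Rpa1 read 11.35, 11.33 and 11.30. No such check exists for the other knockdown, since Hsf1 itself was not analysed here. Of 9 fibroblast markers 7 lay above the median gene, led by Vim at 14.07, Col1a1 at 12.82 and Dcn at 12.65, while Thy1 at 8.04 and Lum at 5.03 lay below the median of 8.39. None of 6 endothelial and none of 5 adipocyte markers lay above that median, while 2 of 7 epithelial, 1 of 6 blood, 1 of 6 muscle and 3 of 6 neural markers did. Fibroblast markers moved in both knockdowns, with 4 of 9 lower in HSF1 shRNA cells, 7 of 9 lower in RPA1 shRNA cells and 0 higher in either. Their summed log2 signal ran between 95.7 and 96.6 on the HSF1 shRNA arrays and between 92.0 and 93.0 on the RPA1 shRNA arrays, against 98.2 and 99.0 on the control arrays. Of 6 neural markers, Tubb3 among them, 3 were called higher in each knockdown and 1 lower in RPA1 shRNA cells, and their sums ran between 51.3 and 51.5 on the HSF1 shRNA arrays and between 51.4 and 51.9 on the RPA1 shRNA arrays, against 49.9 and 50.4 on the control arrays. Of 6 blood markers, 1 was called higher in HSF1 shRNA cells and 2 in RPA1 shRNA cells, and their sums ran between 42.0 and 42.3 on the HSF1 shRNA arrays and between 43.5 and 44.0 on the RPA1 shRNA arrays, against 40.6 and 41.4 on the control arrays. The sums of the epithelial, endothelial, muscle and adipocyte lists also lay above all control arrays on all HSF1 shRNA arrays, with 0, 1, 1 and 1 marker called higher there. On the RPA1 shRNA arrays the muscle sums lay above all control arrays too, and the sums of the other lists named here overlapped with control. In RPA1 shRNA cells 1 endothelial and 1 muscle marker were called higher. The part of these lists in the results on TRiC was not tested. In such bulk samples, fewer cells of a type and less RNA per cell cannot be told apart.

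The 8 TRiC genes were among the strongly expressed genes of these fibroblasts. Their mean signals over the 9 arrays lay between the 93.6th percentile of the tested genes (Cct5) and the 99.5th (Cct2). Values below are log2 signals, so a difference of 1 is 2-fold. A gene was called where the limma fit to all 9 arrays gave a Benjamini-Hochberg adjusted p under 0.05 over the 19938 genes. Differences carry the standard error of that fit with n = 3 arrays per group. Means carry the SD. An exact test of 3 arrays against 3 cannot go below p = 0.1, so the calls rest on limma's shared estimate of the variance.

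**Figure D1:**
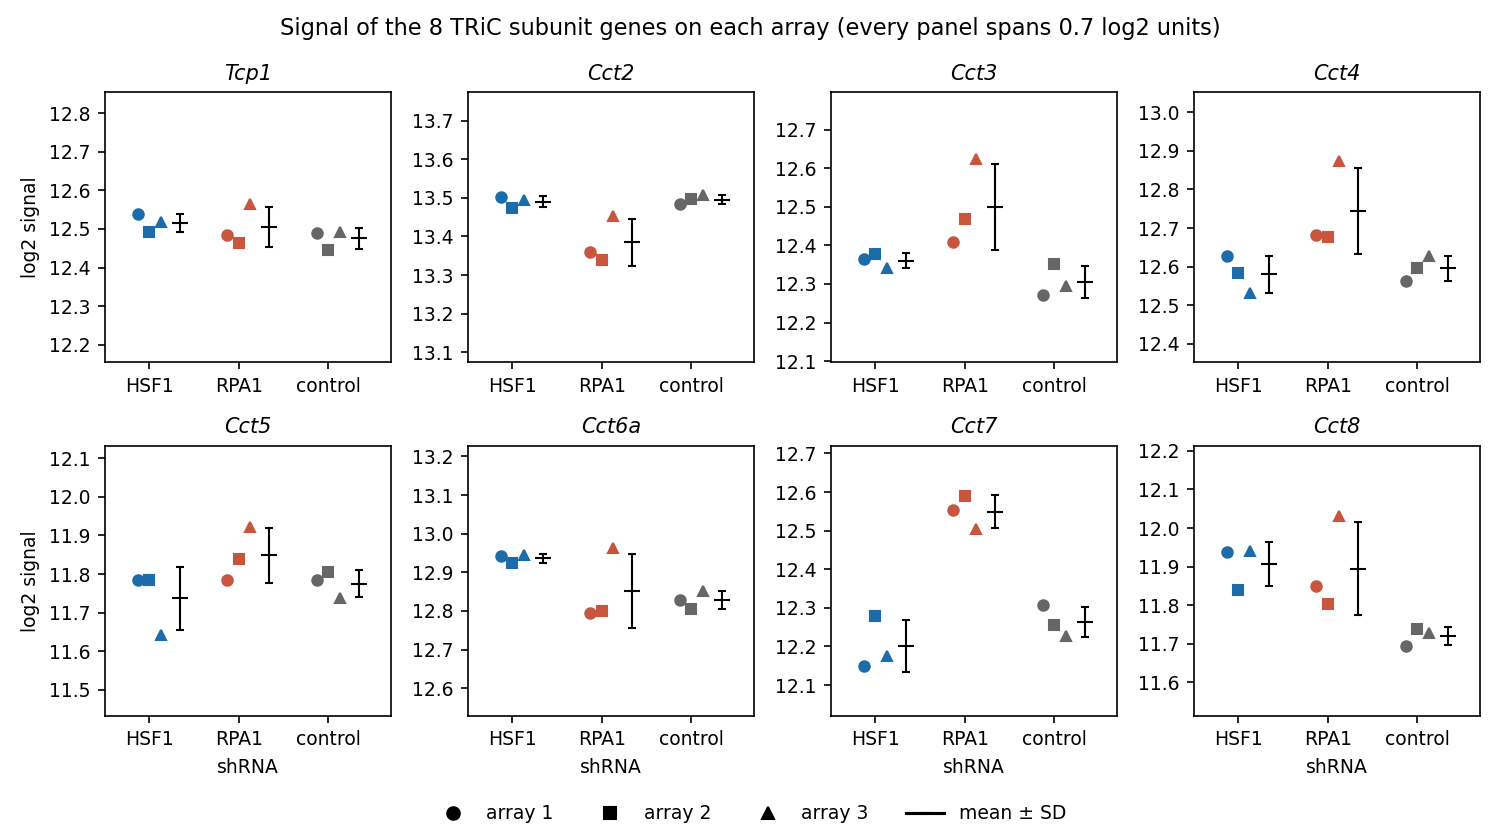
Log2 signal of each TRiC gene on every array, in HSF1 shRNA, RPA1 shRNA and control cells, with each group's mean and SD (n = 3). Cct7 is higher on all RPA1 shRNA arrays than on any other array, and Cct8 is lower on all control arrays than on any knockdown array.

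With the HSF1 shRNA, none of the 8 TRiC genes was called, against 16.1% of all tested genes (9.89% higher and 6.21% lower in HSF1 shRNA cells). Of the members 1, Cct8, had an unadjusted p under 0.05 in limma, as had 5697 of the 19938 genes, and a linear model without moderation also called 0. The log2 differences ran from -0.06 to 0.19, with 4 above and 4 below 0, and their median was 0.02, beside 0.04 over all tested genes. The sign of that median turned with the scaling, to -0.02 with arrays centred on their median and -0.03 with cyclic loess. The widest 95% limits of any member were 1.13-fold lower and 1.26-fold higher than control. The groups did not overlap for 2 of 8 members, against 37.9% of all tested genes.

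Cct8, the theta subunit, whose extra expression in C. elegans was reported to raise assembly of the whole complex, came nearest to a call. It read 11.94, 11.84 and 11.94 on the HSF1 shRNA arrays, against 11.70, 11.74 and 11.73 on the control arrays. All HSF1 shRNA arrays were above all control arrays. The difference was 0.19 ± 0.06, with 95% limits of 0.04 and 0.33 and an adjusted p of 0.0851 in limma. It passed in 3 of 20 alternatives, which are the fit to these 6 arrays only (adjusted p = 0.0232), array weights (0.0227) and the fit without RPA1 shRNA array 3 (0.0173). Cct6a, the zeta subunit, which has a testis paralog named Cct6b, read 12.94, 12.92 and 12.94 on the HSF1 shRNA arrays, against 12.83, 12.80 and 12.85 on the control arrays. The HSF1 shRNA arrays again lay above all control arrays, by 0.11 ± 0.05, at an adjusted p of 0.237 in limma.

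For the other 6 members the HSF1 shRNA and control arrays overlapped. Tcp1, the alpha subunit and the first of the family to be described, read 12.54, 12.49 and 12.52 on the HSF1 shRNA arrays, against 12.49, 12.44 and 12.49 on the control arrays. Cct2, the beta subunit, which in human cells was reported to act also as a receptor that delivers protein aggregates to autophagy, read 13.50, 13.47 and 13.50, against 13.48, 13.50 and 13.51 in control. Cct3, the gamma subunit, read 12.36, 12.38 and 12.34, against 12.27, 12.35 and 12.30 in control. These 3 genes had differences between -0.01 and 0.06, at adjusted p-values between 0.61 and 0.957. Cct4, the delta subunit, which carries a mutation in a rat strain with sensory neuropathy, read 12.63, 12.58 and 12.53, against 12.56, 12.60 and 12.63 in control. Cct5, the epsilon subunit, mutated in a human hereditary sensory neuropathy, read 11.78, 11.78 and 11.64, against 11.78, 11.81 and 11.74 in control. Cct7, the eta subunit, read 12.15, 12.28 and 12.17, against 12.31, 12.26 and 12.23 in control. These 3 had small negative differences, of which the largest was -0.06 ± 0.05 for Cct7 (adjusted p = 0.491 in limma).

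With the RPA1 shRNA, 2 of the 8 TRiC genes rose, Cct7 and Cct3, and none fell. In the same comparison 30.1% of all tested genes were called, 15.4% higher and 14.7% lower in RPA1 shRNA cells. The members' count is close to that share over all genes. The members are strongly expressed, however, and with only the 9969 genes above the median gene tested, 51.5% were called. A further 3 members had an unadjusted p under 0.05, which makes 5 of 8, beside 7855 of the 19938 genes. The log2 differences were above 0 for 7 of 8 members and had a median of 0.11, beside 0.02 over all tested genes. The groups did not overlap for 5 members, with 4 above control and 1 below, against 41% of all tested genes. The comparison uses the same control arrays as the one above, so the 2 sets of differences are not independent.

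Cct7 rose most clearly. It read 12.55, 12.59 and 12.50 on the RPA1 shRNA arrays, against 12.31, 12.26 and 12.23 on the control arrays. Every RPA1 shRNA array was above every other array of the series. The means were 12.55 ± 0.04 in RPA1 shRNA cells and 12.26 ± 0.04 in control cells (SD, n = 3 each). The difference was 0.29 ± 0.05, a 1.22-fold rise, with 95% limits of 0.17 and 0.40 and an adjusted p of 0.0026 in limma, and it was called in all 20 alternatives.

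Cct3 read 12.41, 12.47 and 12.62 on the RPA1 shRNA arrays, against 12.27, 12.35 and 12.30 on the control arrays. The groups were separate, and RPA1 shRNA array 3 was the highest. The difference was 0.19 ± 0.06 at an adjusted p of 0.0353 in limma. This call was lost in 10 of 20 alternatives. Among them, the fit without RPA1 shRNA array 3 gave 0.13 at an adjusted p of 0.0599, and the fits without each control array gave adjusted p-values of 0.109, 0.0542 and 0.0983.

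Cct8 and Cct4 lay above all control arrays without passing. Cct8 read 11.85, 11.80 and 12.03 on the RPA1 shRNA arrays, against 11.70, 11.74 and 11.73 on the control arrays, a difference of 0.17 ± 0.06 (adjusted p = 0.0708 in limma, passed in 5 of 20 alternatives). Cct4 read 12.68, 12.68 and 12.87, against 12.56, 12.60 and 12.63 in control, a difference of 0.15 ± 0.06 (adjusted p = 0.102). For both genes RPA1 shRNA array 3 was well above the other RPA1 shRNA arrays, and without it the differences were 0.11 and 0.08. Cct2 was the one member with all RPA1 shRNA arrays below all control arrays. It read 13.36, 13.34 and 13.45, against 13.48, 13.50 and 13.51 in control, a difference of -0.11 ± 0.05 (adjusted p = 0.107). Cct2 passed in 5 of 20 alternatives, and without RPA1 shRNA array 3 its difference was -0.15 at an adjusted p of 0.0259.

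The other 3 members overlapped with control. Cct5 read 11.78, 11.84 and 11.92 on the RPA1 shRNA arrays, against 11.78, 11.81 and 11.74 on the control arrays, a difference of 0.07 ± 0.06. Cct6a read 12.79, 12.80 and 12.96, against 12.83, 12.80 and 12.85 in control, a difference of 0.02 ± 0.05. Tcp1 read 12.49, 12.46 and 12.57, against 12.49, 12.44 and 12.49 in control, a difference of 0.03 ± 0.05. Their adjusted p-values in limma lay between 0.407 and 0.803, and in each of these genes it was RPA1 shRNA array 3 that read highest.

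**Figure D2:**
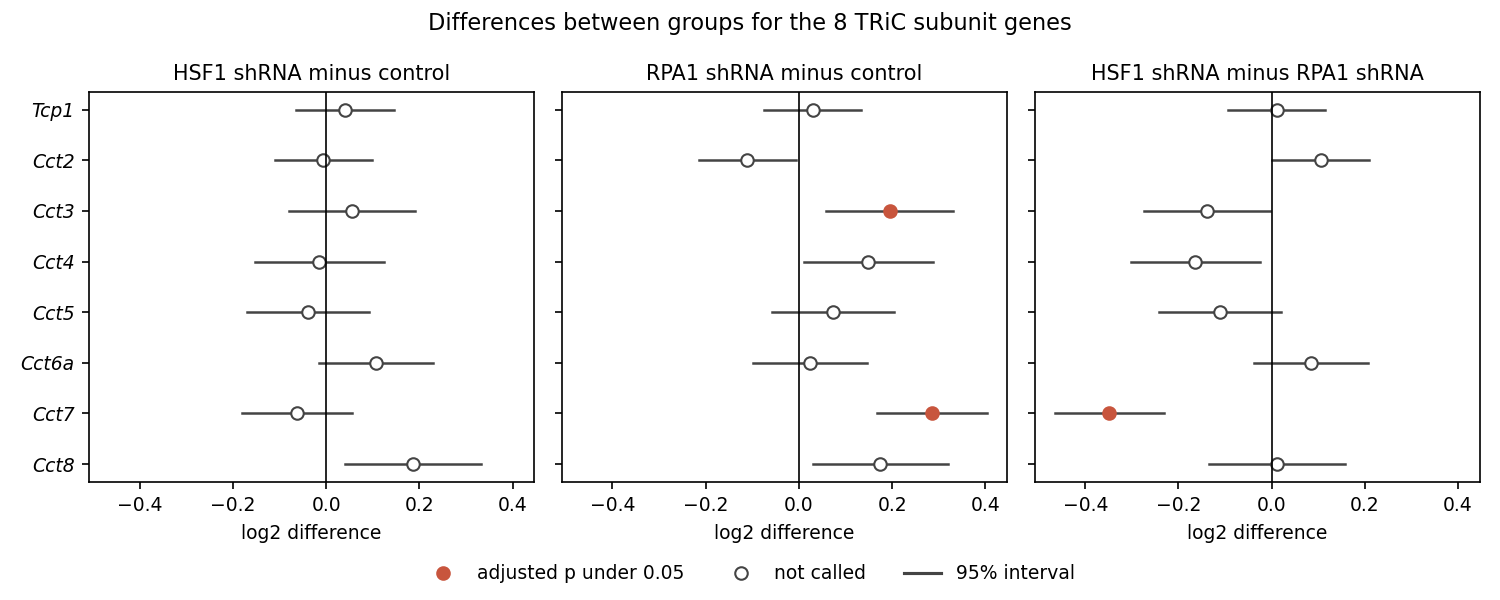
Log2 difference of each TRiC gene in the 3 comparisons, with 95% limits from limma (n = 3 arrays per group) and filled points for an adjusted p under 0.05. Filled points are Cct7 and Cct3 in RPA1 shRNA minus control and Cct7 in HSF1 shRNA minus RPA1 shRNA.

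The contrast of HSF1 shRNA with RPA1 shRNA tests directly whether the knockdowns differed. Cct7 was lower in HSF1 shRNA cells, and the other 7 members were not called, against 24.4% of all tested genes called (14.7% higher and 9.71% lower in HSF1 shRNA cells). Cct7 averaged 12.20 ± 0.07 in HSF1 shRNA cells and 12.55 ± 0.04 in RPA1 shRNA cells (SD, n = 3 each). The difference was -0.35 ± 0.05, which is 1.27-fold lower, with 95% limits of -0.47 and -0.23 and an adjusted p of 0.00155 in limma. It was called in all 20 alternatives, with differences between -0.39 and -0.32. Cct7 was thus highest in RPA1 shRNA cells, and HSF1 shRNA and control cells did not differ beyond their spread.

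Cct4 and Cct3 were also lower on all HSF1 shRNA arrays than on all RPA1 shRNA arrays. Cct4 averaged 12.58 ± 0.05 in HSF1 shRNA cells and 12.74 ± 0.11 in RPA1 shRNA cells, a difference of -0.16 ± 0.06 (adjusted p = 0.0859 in limma, passed in 4 of 20 alternatives). Cct3 averaged 12.36 ± 0.02 in HSF1 shRNA cells and 12.50 ± 0.11 in RPA1 shRNA cells, a difference of -0.14 ± 0.06 (adjusted p = 0.131). Cct2 ran the other way, with 13.49 ± 0.01 in HSF1 shRNA cells and 13.39 ± 0.06 in RPA1 shRNA cells, a difference of 0.10 ± 0.05 (adjusted p = 0.14). Non-overlap of the arrays thus held for 4 of 8 members, 1 higher and 3 lower in HSF1 shRNA cells, against 34.5% of all tested genes. For Tcp1, Cct5, Cct6a and Cct8 the arrays overlapped, with differences between -0.11 and 0.08. The 95% limits of Cct8 were -0.13 and 0.16 and those of Tcp1 -0.09 and 0.12. The median over the 8 members was -0.05, beside 0.02 over all tested genes.

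A single array carried much of the spread. RPA1 shRNA array 3 was the highest of the 9 arrays for 6 of the 8 members (Tcp1, Cct3, Cct4, Cct5, Cct6a and Cct8), whereas it was the highest for 12.3% of all tested genes. The median member lay 0.19 above its control mean there, against 0.05 and 0.07 on RPA1 shRNA arrays 1 and 2. Its differences at other genes were smaller than those of the other RPA1 shRNA arrays. Over 506 genes that differed at least 2-fold from control on the other RPA1 shRNA arrays, its difference was 0.675 of theirs in the median, while the ratios of RPA1 shRNA arrays 1 and 2, taken the same way over 352 and 335 genes, were 1.08 and 1.06. Rpa1 itself read 9.40 there, between the other arrays of its group. Without this array the median over the 8 members in RPA1 shRNA minus control was 0.06 in place of 0.11. Cct7 remained called there at 0.31 (adjusted p = 0.00191 in limma). In HSF1 shRNA minus RPA1 shRNA, leaving it out added Cct2 at 0.14 (adjusted p = 0.0339) and Cct6a at 0.14 (adjusted p = 0.0355) to the members called, both higher in HSF1 shRNA cells, while Cct7 stayed called at -0.37.

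**Figure D3:**
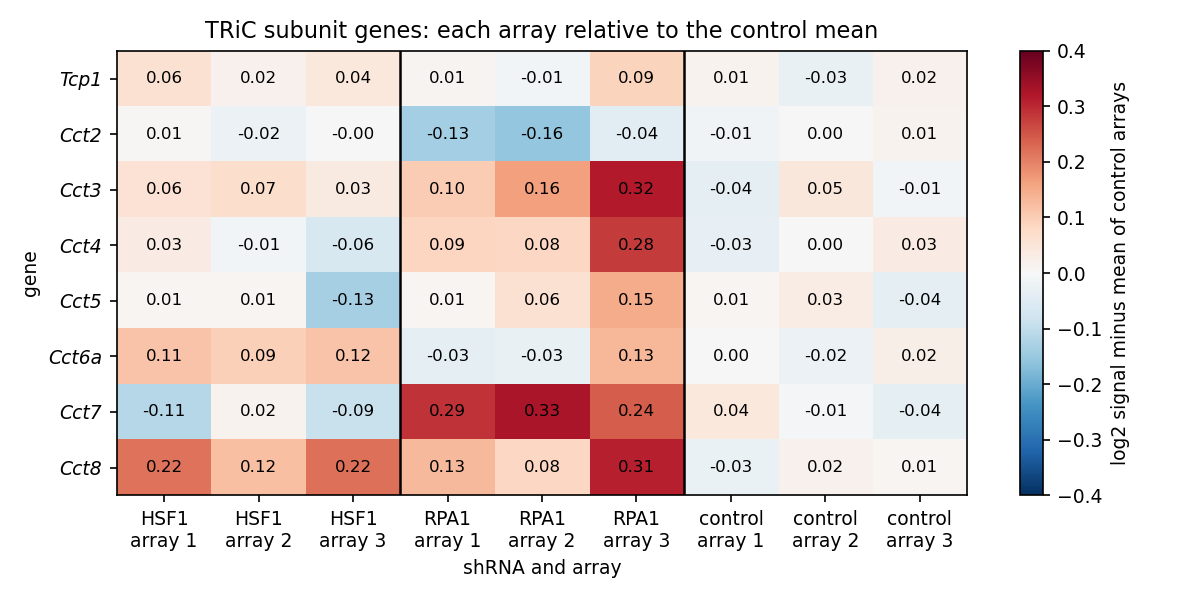
Log2 signal of each TRiC gene on each array minus the mean of the 3 control arrays, as a colour scale. RPA1 shRNA array 3 is above the control mean for 7 of 8 genes, and Cct7 is high and Cct2 low on all RPA1 shRNA arrays.

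Although the subunits are needed in equal numbers, their transcripts did not all vary together over the 9 arrays. Of the 28 pairs of members, 20 had a positive Pearson correlation, and the median was 0.39 (n = 9 arrays, which share their groups and, for 1 array, the deviation just described). Cct3 and Cct4 were the closest pair at 0.905, and 0.659 without RPA1 shRNA array 3. Cct2 and Cct7 were the most opposed at -0.906, and -0.970 without that array. In Cct7 minus Cct2, set to 0 at the control mean, the RPA1 shRNA arrays read 0.42, 0.48 and 0.28 and the HSF1 shRNA arrays -0.12, 0.04 and -0.09, against 0.06, -0.01 and -0.05 on the control arrays. All RPA1 shRNA arrays were above all others. This pair was picked after its values were seen and has no test.

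Genes that work with TRiC were read from 6 lists, with the same limma calls over all tested genes. Prefoldin is the hexamer that holds unfolded actin and tubulin and hands them to TRiC. Of its 6 subunit genes 3 rose in HSF1 shRNA cells and 0 fell, and in RPA1 shRNA cells 1 rose and 1 fell. Over all tested genes 16.1% were called in HSF1 shRNA cells and 30.1% in RPA1 shRNA cells, so the count in RPA1 shRNA cells is near that share. All 6 lie above the median gene, and with only such genes tested the shares were 31.9% and 51.5%. The count in HSF1 shRNA cells ran from 2 to 3 over the alternatives, with 2 when any 1 control or HSF1 shRNA array was left out. The median difference of the 6 was 0.15 in HSF1 shRNA and 0.01 in RPA1 shRNA cells, beside 0.04 and 0.02 over all tested genes. Pfdn4 rose in both, and it read 8.82, 8.63 and 8.59 on the HSF1 shRNA arrays and 8.78, 8.73 and 8.93 on the RPA1 shRNA arrays, against 8.15, 8.37 and 8.24 on the control arrays. The differences were 0.43 ± 0.08 (adjusted p = 0.00836) and 0.56 ± 0.08 (adjusted p = 0.000858), and all knockdown arrays were above all control arrays. Vbp1, which makes prefoldin subunit PFDN3, read 10.91, 10.91 and 10.90 on the HSF1 shRNA arrays, against 10.51, 10.52 and 10.53 on the control arrays, a rise of 0.39 ± 0.05 (adjusted p = 0.000854). On the RPA1 shRNA arrays Vbp1 read 10.48, 10.61 and 10.57, which overlaps with control (0.04 ± 0.05, adjusted p = 0.62), and it was higher in HSF1 shRNA than in RPA1 shRNA cells by 0.35 ± 0.05 (adjusted p = 0.000951). Pfdn5 read 10.48, 10.40 and 10.50 on the RPA1 shRNA arrays, against 10.83, 10.96 and 10.88 on the control arrays, and fell by 0.43 on the log2 scale (adjusted p = 0.00307). Pfdn1 rose by 0.23 ± 0.07 in HSF1 shRNA cells (adjusted p = 0.0413), a call that 10 of 19 alternatives lost.

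The cofactors and relatives of TRiC were read from 4 further lists. Over all tested genes 16.1% were called in HSF1 shRNA minus control and 30.1% in RPA1 shRNA minus control. In HSF1 shRNA minus RPA1 shRNA the share was 24.4%. Of 4 phosducin-like genes, whose proteins bind TRiC with its clients, Pdcl3 was the only one called, with 0.23 ± 0.05 in HSF1 shRNA cells (adjusted p = 0.0111 in limma) and 0.19 ± 0.05 in RPA1 shRNA cells (adjusted p = 0.0153, lost in 2 of 19 alternatives, those without control array 1 or 3). Among Cct6b and 3 chaperonin-like genes whose human forms are mutated in Bardet-Biedl syndrome, 0 of 4 were called in HSF1 shRNA cells, while in RPA1 shRNA cells Bbs12 fell by 0.40 on the log2 scale (adjusted p = 0.00129). Bbs12 was also higher in HSF1 shRNA than in RPA1 shRNA cells, by 0.33 ± 0.06 (adjusted p = 0.0055), in all 18 alternatives. Mkks, another of them, was higher in HSF1 shRNA than in RPA1 shRNA cells by 0.20 (adjusted p = 0.0332), which 14 of 19 alternatives did not call. Of the 2 genes of the mitochondrial chaperonin, which folds proteins in the matrix, Hspd1 rose by 0.29 ± 0.07 in RPA1 shRNA cells (adjusted p = 0.00873). Its lid gene Hspe1 was lower in HSF1 shRNA than in RPA1 shRNA cells by 0.35 on the log2 scale, at -0.35 ± 0.07 (adjusted p = 0.00448), and was called in neither comparison with control. The tubulin folding cofactors take tubulin on from TRiC. Their genes Tbca, Tbcb, Tbcc, Tbcd and Tbce were called in none of the 3 comparisons. The list of 7 genes also held Tbcel and Arl2. Tbcel rose by 0.22 ± 0.05 in HSF1 shRNA cells (adjusted p = 0.0159, lost when control array 1 or 3 was left out). None of the 7 was called in RPA1 shRNA minus control. Tbcel was higher in HSF1 shRNA than in RPA1 shRNA cells by 0.27 ± 0.05 (adjusted p = 0.00418), in all 19 alternatives. Arl2 was lower in HSF1 shRNA than in RPA1 shRNA cells, at -0.24 ± 0.07 (adjusted p = 0.0418), which 9 of 19 alternatives lost. In HSF1 shRNA and RPA1 shRNA cells the median difference was 0.13 and 0.09 for the phosducin-like genes. It was 0.01 and -0.17 for the Bardet-Biedl genes with Cct6b, -0.02 and 0.24 for the mitochondrial chaperonin, and 0.03 and -0.05 for the tubulin list. Over all tested genes the medians were 0.04 and 0.02.

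Genes of proteins that need TRiC to fold were tested for 15 of 19 listed, while Actg1, Tuba1b, Tuba1c and Tubb4b were not analysed here. In HSF1 shRNA cells 4 of the 15 rose and 0 fell, and in RPA1 shRNA cells 3 rose and 5 fell, beside 16.1% and 30.1% of all tested genes called. All 15 lie above the median gene, however. With only the genes above it tested, 31.9% were called in HSF1 shRNA cells and 51.5% in RPA1 shRNA cells. The client counts are close to those shares. Leaving out some arrays lowered both counts, while without RPA1 shRNA array 3 the count in HSF1 shRNA cells was 5. The 4 in HSF1 shRNA cells became 2 without any 1 of the control or HSF1 shRNA arrays or RPA1 shRNA array 1. With all 9 arrays kept, they also became 2 with the replicate block, quantile scaling or median scaling, and 3 with cyclic loess scaling. They rose to 5 with array weights, and to 6 with only the 6 arrays compared or with trend and robust moderation. The 8 in RPA1 shRNA cells became 4 without control array 1 or RPA1 shRNA array 2, and 5 without control array 2 or 3 or RPA1 shRNA array 1. Their median difference was 0.02 in HSF1 shRNA and 0.0043 in RPA1 shRNA cells. Tuba4a, an alpha-tubulin, rose by 0.44 ± 0.06 in HSF1 shRNA cells (adjusted p = 0.00117 in limma) and by 0.35 ± 0.06 in RPA1 shRNA cells (adjusted p = 0.00137). Tubb3, a beta-tubulin that the list of neural markers also holds, rose by 0.52 ± 0.08 in HSF1 shRNA cells (adjusted p = 0.00244) and by 0.33 ± 0.08 in RPA1 shRNA cells (adjusted p = 0.011). Tuba1a, another alpha-tubulin, moved in opposite ways. It read 13.38, 13.34 and 13.37 on the HSF1 shRNA arrays and 12.82, 12.72 and 13.05 on the RPA1 shRNA arrays, against 13.11, 13.10 and 13.11 on the control arrays. The groups did not overlap. The differences from control were 0.26 ± 0.08 (adjusted p = 0.0458) and -0.25 ± 0.08 (adjusted p = 0.0333), each lost in several alternatives (12 and 9 of 19), while HSF1 shRNA minus RPA1 shRNA gave 0.51 ± 0.08 (adjusted p = 0.00153). Fzr1, an activator of the ubiquitin ligase APC/C, fell by 0.30 on the log2 scale in RPA1 shRNA cells (adjusted p = 0.00215) and differed by -0.01 ± 0.05 in HSF1 shRNA cells. For the other clients called against control no alternatives are given. In RPA1 shRNA cells Acta2, an actin gene, rose by 0.88 ± 0.19 (adjusted p = 0.006 in limma). The beta-tubulins Tubb2a, Tubb2b and Tubb5 differed there by -0.80 ± 0.22, -0.23 ± 0.07 and -0.17 ± 0.05 (adjusted p = 0.0209, 0.0382 and 0.0162). Tubb6 rose by 0.19 ± 0.06 in HSF1 shRNA cells (adjusted p = 0.0478). Tubulin genes are near copies of each other, and whether a probe set reads more than one of them was not tested.

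**Figure D4:**
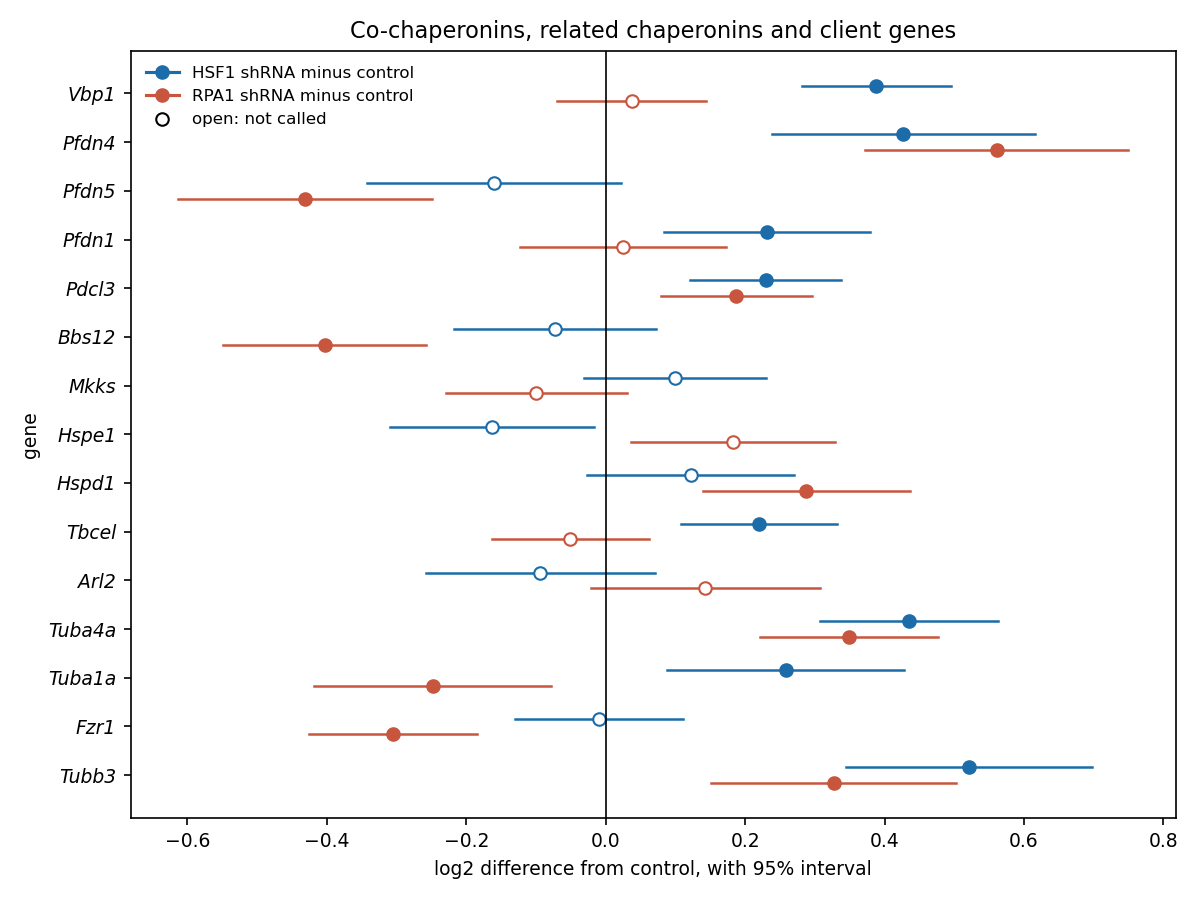
Log2 differences of 15 prefoldin, cofactor, chaperonin and client genes, those with the smallest adjusted p of each list. Values are for HSF1 shRNA and RPA1 shRNA cells, each minus control. Lines are 95% limits from limma (n = 3 arrays per group), and filled points have an adjusted p under 0.05. Pfdn4, Pdcl3, Tuba4a and Tubb3 are higher in both knockdowns, and Tuba1a is higher in HSF1 shRNA and lower in RPA1 shRNA cells.

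Most TRiC genes start close to a gene read from the other strand, but the share of all genes that do so was not counted. Of the 7 members with a RefSeq promoter entry, 6 had such a neighbour with its start within 1000 bases. The distances lay between 103 bases (Psph and Cct6a) and 270 bases (Atpsckmt and Cct5). Cct4 has no promoter entry, so no neighbour was searched for it. Neighbour and member were not called together in any comparison with control except at Cct3. Its neighbour Tsacc, 136 bases away, read 8.11, 8.31 and 7.95 on the RPA1 shRNA arrays, against 7.83, 7.65 and 7.83 on the control arrays, a rise of 0.35 ± 0.09 (adjusted p = 0.013 in limma), which was lost without control array 2. All RPA1 shRNA arrays were above all control arrays. Tsacc, known from testis as a partner of a kinase and HSP70, was at -0.02 ± 0.09 in HSF1 shRNA cells. Mrpl18, a protein of the mitochondrial ribosome whose gene starts 238 bases from Tcp1, rose by 0.34 ± 0.09 in HSF1 shRNA cells (adjusted p = 0.0244, lost in 7 of 19 alternatives), where Tcp1 differed by 0.04 ± 0.05. Atpsckmt, next to Cct5, fell by 0.21 on the log2 scale in RPA1 shRNA cells (adjusted p = 0.0172, lost in 4 of 18 alternatives, among them those without each control array), where Cct5 differed by 0.07 ± 0.06. Pradc1, which starts 203 bases from Cct7, differed by -0.01 ± 0.05 in RPA1 shRNA cells, in which Cct7 rose by 0.29. Psph, an enzyme of serine synthesis, was called in none of the 3 comparisons, and the neighbour of Cct8 was not analysed here.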

How the data were processed

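Gene expression was measured on 9 Affymetrix mouse whole-transcript gene arrays, 3 per group. The deposited values, taken here as log2 signals with 1 per probe set and array, were made by the authors with the RMA method in Partek 6.5, per the submitters' processing notes. The notes give no scale, and log2 was inferred from the range of the values. Genome build, probe annotation and settings used upstream are not given in the sources used here. Of 35557 rows, 21789 had 1 gene symbol in the platform annotation, 1621 had several and 12147 were not listed. Where a gene had several rows the brightest on average was kept, leaving 19938 genes, and no filter on dim genes was used.

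Values were used as deposited in R 4.3.3 with limma 3.58.1. The linear model took a mean for each of the 3 groups from the 9 arrays together, leaving 6 residual degrees of freedom, with 3 contrasts, empirical Bayes moderation and two-sided Benjamini-Hochberg adjustment over all genes, called at 0.05. The procedure was tested on simulated data. Precision is limited by having only 3 arrays in a group. The labels number the replicates in every group, but arrays with the same number did not deviate together (9 pairs, r between -0.159 and 0.0933), so the main model has no block.

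Named were all 8 members, Rpa1, up to 4 called genes per partner list by smallest adjusted p, neighbours on the other strand with a start within 1000 bases, and the 5 genes most correlated with the mean of the members. Of the clients, the others called against control were named too. The members and lists were chosen with earlier results of these data known. Alternatives were the replicate block, 3 scalings, a filter on dim genes, the arrays in the fit, array weights, 2 kinds of moderation, 2 ways to treat several rows of a gene, and leaving out each array. Promoters and gene positions came from RefSeq (GRCm38.p6).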

Additional observations from a re-analysis of the deposited data

How the results depend on the processing

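Each member was refitted under 20 alternatives in each of the 3 comparisons. In 427 of these refits the direction and the side of the threshold were kept, 22 gained a call, 10 lost one (Cct3 in RPA1 shRNA minus control), and 21, all of differences that were not called, turned sign. Precision is limited by having 3 arrays per group.

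The members called in HSF1 shRNA minus control numbered 0, and 1 with only the 6 arrays compared or with array weights, and leaving out an array gave 0 to 1. In RPA1 shRNA minus control they numbered 2, and 1 with only the 6 arrays compared, 3 with quantile scaling, cyclic loess scaling or only genes above the median gene, 4 with array weights and 4 with trend and robust moderation, in both cases 3 higher and 1 lower. Leaving out an array gave 1 to 2 there, and the median of 0.11 ran from 0.060 (without RPA1 shRNA array 3) to 0.14. In HSF1 shRNA minus RPA1 shRNA they numbered 1, and 2 with quantile, median or cyclic loess scaling, 3 with array weights and 3 with trend and robust moderation, and leaving out an array gave 1 to 3, with 3 without RPA1 shRNA array 3. The share of all genes called moved too, in RPA1 shRNA minus control to 25.6% with 6 arrays and 45.5% with array weights. With only genes above the median gene it was 51.5% there, 31.9% in HSF1 shRNA minus control and 44.8% in HSF1 shRNA minus RPA1 shRNA.

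Signs turned as follows. In HSF1 shRNA minus control, Tcp1 was at -0.0059 with cyclic loess scaling, and leaving out an array moved Cct2 between -0.012 and 0.0025, Cct4 between -0.038 and 0.010 and Cct5 between -0.062 and 0.0084. In RPA1 shRNA minus control, Cct6a was at -0.028 with array weights and between -0.032 and 0.052 with an array left out, and Tcp1 between -0.00052 and 0.050. In HSF1 shRNA minus RPA1 shRNA, Tcp1 was at -0.0091, -0.033 and -0.023 with quantile, median and cyclic loess scaling and between -0.0094 and 0.041 with an array left out. Cct8 was at -0.0078, -0.032 and -0.025 with the same scalings and between -0.034 and 0.080 with an array left out. The cause was not tested.

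With the replicate number as a block, RPA1 shRNA minus control had 1 member called, as Cct3 moved to an adjusted p of 0.0539 in limma. The other counts stayed at 0 for HSF1 shRNA minus control and 1 for HSF1 shRNA minus RPA1 shRNA, and the arrays share only a number. The alternatives of the partner genes and neighbours were chosen after seeing the data.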

Other observations

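Over the 9 arrays, the genes whose pattern was most like the mean of the 8 TRiC genes were Nipa2, Gm807, Csrnp1, Olfr458 and Ppid, with Pearson correlations of 0.971, 0.965, 0.965, 0.962 and 0.958 (n = 9 arrays that share their groups). Nipa2 makes a magnesium transporter, and Ppid makes cyclophilin 40, a co-chaperone of HSP90. Ppid read 11.09, 11.02 and 11.13 on the HSF1 shRNA arrays and 11.11, 11.14 and 11.51 on the RPA1 shRNA arrays, against 10.94, 10.99 and 10.93 on the control arrays. RPA1 shRNA array 3 was the highest of the 9 for it, as it was for 6 of the TRiC genes. Without RPA1 shRNA array 3 and control array 1, the arrays farthest from the median of the members' mean, the correlations were 0.886 for Nipa2, 0.916 for Gm807, 0.877 for Csrnp1, 0.897 for Olfr458 and 0.732 for Ppid. These genes were picked for following the members' mean, so no test of them is given.

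Cct5 held the same deposited value, 11.78, on HSF1 shRNA arrays 1 and 2 and on control array 1. Such equal values were not particular to Cct5. Pradc1, for example, held 9.14 on arrays 2 and 3 of both the HSF1 shRNA and the control group.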
